A study of Mus musculus with 6 samples.

Results

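The fibroblast growth factor (Fgf) receptor genes and the genes that Fgf signalling switches on as its own feedback were described across 6 RNA-seq libraries of primary mouse motoneuron cultures. The set held 10 of the 39174 genes in the deposited tables and was picked by gene symbol. It comprised the receptors Fgfr1, Fgfr2, Fgfr3 and Fgfr4, the receptor-like gene Fgfrl1, and the feedback targets Spry2, Spry4, Etv4, Etv5 and Dusp6. All 10 symbols were found once in each library. Fgfr1 had been picked because its level differed between the genotypes in these same libraries. Its difference, and any contrast of it with other genes, members or not, is therefore given as a description with no test.

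Of the 6 cultures, 3 were Nmd-/- and 3 were Nmd+/+, and both genotypes had the strain label CD-1. Nmd is the neuromuscular degeneration allele of Ighmbp2, which encodes an RNA and DNA helicase and whose human counterpart is mutated in spinal muscular atrophy with respiratory distress. No sex, age, treatment or time in culture was given for a library in the labels, nor whether replicates came from separate embryos or separate cultures. The p-values and intervals between genotypes therefore measure only the spread between these samples, part of which may be technical.

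Fgfs bind the extracellular domain of a receptor tyrosine kinase together with heparan sulfate, and the paired receptors phosphorylate each other and the adaptor Frs2. The signal then passes through Ras, Raf and Mek to the kinase Erk, and through phospholipase C and other branches. Erk in turn raises transcription of Etv4 and Etv5, and of Spry and Dusp6 genes whose products dampen the same cascade, so that these target genes are widely used as a readout of Fgf and Erk activity. In the developing spinal cord, Fgf signalling keeps progenitor cells dividing and takes part in their patterning along the body axis.

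The values are fragments per kilobase of transcript, scaled to the fragments of the library (FPKM), a unit that divides by transcript length, so levels can be set side by side between genes. Each library held between 14474 and 14645 genes at 1 FPKM or more, and its depth, read from the width of the intervals the authors' software gave, was equivalent to between 15446400 and 23138200 fragments. Ighmbp2 itself averaged 0.754 ± 0.142 FPKM in Nmd-/- and 1.28 ± 0.172 FPKM in Nmd+/+ cultures (SD, n = 3 each). Of 11 motoneuron markers in the files 5 reached a mean of 1 FPKM, Foxp1 (36.9 FPKM), Gfra1 (12.9 FPKM), Nefh (8.30 FPKM), Ret (2.83 FPKM) and Isl1 (1.31 FPKM), which other neurons also express. The acetylcholine-synthesis gene Chat did not exceed 0.0692 FPKM, and the homeobox gene Mnx1 did not exceed 0.0247 FPKM and was listed at 0 in all Nmd-/- libraries. Markers of radial glia and astrocytes, by contrast, were at a mean of 1 FPKM or more in 12 of 12 cases. They summed to between 4089 and 5028 FPKM in Nmd-/- and between 3237 and 4390 FPKM in Nmd+/+ libraries. Most of each sum was Vim alone, at 3420 to 4452 FPKM in Nmd-/- and 2380 to 3645 FPKM in Nmd+/+ libraries. Of the 12 genes 5 were higher and 7 lower in Nmd-/- cultures, with a median log2 difference of -0.07. The members' values are thus levels of a mixed culture, in which fewer cells of a type and less RNA per cell cannot be told apart.

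Fgfr1 was the most abundant of the 4 kinase-bearing receptors in every library, and its level in Nmd-/- cultures was about 2.07 times that in Nmd+/+ cultures. It measured 59.4, 74.1 and 56.1 FPKM in Nmd-/- replicates 1 to 3, against 34.4, 30.7 and 26.6 FPKM in Nmd+/+ replicates 1 to 3. The lowest Nmd-/- library stood above the highest Nmd+/+ library. The means were 63.2 ± 9.61 FPKM in Nmd-/- and 30.6 ± 3.92 FPKM in Nmd+/+ cultures (SD, n = 3 each), a difference of 1.02 on the log2(FPKM + 1) scale. Of the genes tested, 0.0479% had a ratio of means of at least 2 in this direction, which for Fgfr1 is the measure it was picked by. These values rest on the equivalent of 1699 to 3488 fragments per library. The gene (ENSMUSG00000031565) occupies chromosome 8 from 25513654 to 25575714 on the plus strand in GRCm38, and its product carries Fgf signals in neural progenitors and in neurons.

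Libraries of the 2 genotypes that carry the same replicate number deviated together across genes, so the members were also compared within each same-numbered pair. This was weakest for number 3, at a correlation of 0.39, while Nmd-/- replicate 1 and Nmd+/+ replicate 3 reached 0.28. In each of the 3 pairs the 95% interval of Fgfr1 in the Nmd-/- library lay above that in the Nmd+/+ library. The Nmd-/- to Nmd+/+ ratio was 1.72 in pair 1, 2.41 in pair 2 and 2.11 in pair 3. Of all 14611 genes tested, 0.876% had the Nmd-/- interval above in all 3 pairs. A ratio in each pair at or above the lowest ratio of Fgfr1 was found in 3 genes, Fgfr1 among them. That cut-off comes from Fgfr1, which was picked for its difference, so the count is a description only. The reverse, an Nmd-/- interval below in all 3 pairs, was found in 0.431% of the genes tested and in 0 members. The intervals take in the error of estimation in 1 library and no variation between cultures.

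**Figure D1:**
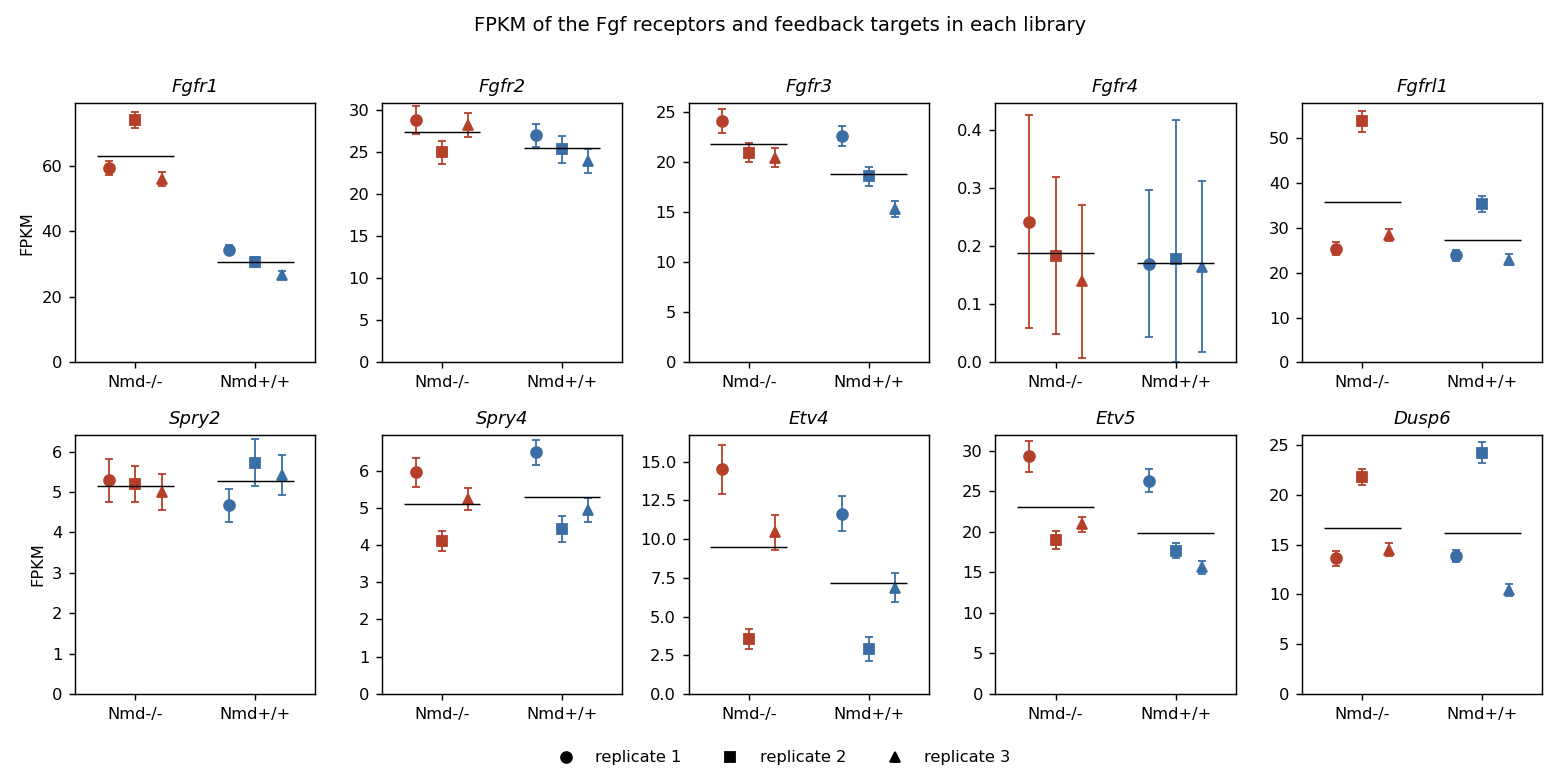
FPKM of each of the 10 genes in each library, with Nmd-/- libraries in red at the left and Nmd+/+ libraries in blue at the right of each panel, 95% intervals as bars, group means as lines and replicate numbers as marker shapes. The Nmd-/- points of Fgfr1, at 56.1 FPKM and above, do not overlap the Nmd+/+ points, at 34.4 FPKM and below, while in the other 9 panels the groups overlap.

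Fgfr2, a receptor for Fgfs of epithelial and mesenchymal exchange that also marks neural progenitors and glia, lay in a narrow band. It measured 28.8, 25.0 and 28.3 FPKM in Nmd-/- replicates 1 to 3, against 27.0, 25.4 and 24.0 FPKM in Nmd+/+ replicates 1 to 3. The groups overlapped, and the highest library was only 1.20 times the lowest. The log2 difference was 0.10 with a 95% interval of -0.19 to 0.39. The gene model of Fgfr2 in the files (ENSMUSG00000030849, chromosome 7 from 130162451 to 133123350, minus strand) spans 2960900 bases and overlaps 41 other genes, and whether strand was used in the quantification is not given in the sources used here.

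Fgfr3, a receptor known for marking radial glia and astrocyte precursors of the spinal cord, was slightly higher in the Nmd-/- library of every pair, with overlapping groups. Its level was 24.2, 20.9 and 20.5 FPKM in Nmd-/- replicates 1 to 3, and 22.7, 18.6 and 15.3 FPKM in Nmd+/+ replicates 1 to 3. Replicate 1 was the highest library of each genotype and replicate 3 the lowest. The log2 difference was 0.22 with a 95% interval of -0.17 to 0.61. In pairs 2 and 3 the Nmd-/- interval lay above the Nmd+/+ interval, as it did for 21.1% of the genes tested in pair 2 and 24.6% in pair 3. The gene (ENSMUSG00000054252) lies on chromosome 5 from 33721724 to 33737068 on the plus strand.

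Fgfr4, a receptor best known from liver and muscle, was close to absent. It averaged 0.189 ± 0.0512 FPKM in Nmd-/- and 0.171 ± 0.00633 FPKM in Nmd+/+ cultures (SD, n = 3 each), from the equivalent of 2.88 to 7.41 fragments per library. The gene (ENSMUSG00000005320) lies on chromosome 13 from 55152640 to 55168759 on the plus strand. It did not reach the mean of 1 FPKM required for testing, and no difference was detectable at this depth.

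Fgfrl1, which encodes an Fgf-binding membrane protein without a kinase domain, was highest in replicate 2 of both genotypes. It measured 25.3, 53.7 and 28.4 FPKM in Nmd-/- replicates 1 to 3, against 23.8, 35.2 and 22.8 FPKM in Nmd+/+ replicates 1 to 3. The Nmd-/- library was the higher one in each pair, but the groups overlapped. The log2 difference was 0.33 with a 95% interval of -0.38 to 1.03. Leaving out a single library moved it between 0.00 without Nmd-/- replicate 2 and 0.53 without Nmd-/- replicate 1, and without replicate 2 of both genotypes it was 0.19. With the replicate number as a block in limma the interval was 0.06 to 0.59, and the adjusted p was 0.99. Fgfrl1 (ENSMUSG00000008090) lies on chromosome 5 from 108694229 to 108706950 on the plus strand.

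In Nmd-/- cultures the receptors ranked Fgfr1 (63.2 FPKM), Fgfrl1 (35.8 FPKM), Fgfr2 (27.4 FPKM), Fgfr3 (21.8 FPKM) and Fgfr4 (0.189 FPKM) by mean level. The order was the same in Nmd+/+ cultures, at 30.6, 27.3, 25.5, 18.9 and 0.171 FPKM. In Nmd-/- cultures the lowest Fgfr1 library (56.1 FPKM) stood just above the highest Fgfrl1 library (53.7 FPKM), whereas the ranges of Fgfrl1 and Fgfr2 overlapped. In Nmd+/+ cultures the ranges of Fgfr1, Fgfrl1 and Fgfr2 overlapped one another. Fgfr1 thus stood above Fgfrl1 in 5 of the 6 libraries, the exception being Nmd+/+ replicate 2, and above Fgfr2, Fgfr3 and Fgfr4 in 6 of 6.

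The 4 kinase-bearing receptors together summed to 112.6 ± 7.66 FPKM in Nmd-/- and 75.1 ± 9.09 FPKM in Nmd+/+ cultures (SD, n = 3 each), a ratio of 1.50. Without Fgfr1 the sum was 49.4 ± 3.56 FPKM in Nmd-/- and 44.5 ± 5.18 FPKM in Nmd+/+ cultures. The larger total in Nmd-/- cultures was therefore mostly Fgfr1 transcript. Fgfr1 made up 52.8%, 61.6% and 53.4% of the receptor FPKM in Nmd-/- replicates 1 to 3, against 40.9%, 41.0% and 40.2% in Nmd+/+ replicates 1 to 3. Its share was nearly constant among the Nmd+/+ libraries and was higher in each Nmd-/- library.

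A ratio within a library does not depend on how libraries are scaled to each other. Fgfr1 over Fgfr2 was 2.06, 2.96 and 1.98 in Nmd-/- replicates 1 to 3, against 1.27, 1.21 and 1.11 in Nmd+/+ replicates 1 to 3. Fgfr1 over Fgfr3 was 2.46, 3.54 and 2.74 in Nmd-/- replicates 1 to 3, against 1.52, 1.65 and 1.74 in Nmd+/+ replicates 1 to 3. Neither ratio overlapped between genotypes, which in part restates the difference that Fgfr1 was picked for. Fgfr1 over Fgfrl1, in contrast, averaged 1.90 ± 0.487 in Nmd-/- and 1.16 ± 0.287 in Nmd+/+ libraries (SD, n = 3 each), and the 2 genotypes overlapped. Against the feedback targets, the genotypes overlapped in the ratio of Fgfr1 over Etv4. They did not overlap in its ratios over Spry2, Spry4, Etv5 and Dusp6. On the log2(FPKM + 1) scale the difference of Fgfr1 exceeded that of Fgfr2 by 0.92, of Fgfr3 by 0.81 and of Fgfrl1 by 0.69.

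The receptors are paralogs, so the coding sequences of GENCODE M21 (GRCm38) were searched for stretches shared by Fgfr1 and each other receptor, since reads from such stretches could be assigned to either gene. The longest runs shared with Fgfr3 and with Fgfr4 are printed here 5′ to 3′, all in lower case because no base is singled out.
Fgfr1 and Fgfr3: gagatggagatgatgaaaatgattgg
Fgfr1 and Fgfr4: atggagaagaaactgcatgc
These runs were 26 and 20 bases long. Of the 2450 windows of 50 bases in the 2499 coding bases of Fgfr1, 0 occurred in any of the other receptors, and of its 2475 windows of 25 bases only 2 occurred in another receptor, in both cases Fgfr3. The untranslated parts of the transcripts were not compared. Inside the Fgfr1 locus the files hold 1 other gene, Gm16159 on the opposite strand, which did not exceed 0.188 FPKM in any library.

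Among the feedback targets, the Sprouty genes encode inhibitors that act between the receptor and Ras. Spry2 was the steadiest member of the set apart from Fgfr2. It measured 5.29, 5.20 and 5.00 FPKM in Nmd-/- replicates 1 to 3, against 4.67, 5.73 and 5.41 FPKM in Nmd+/+ replicates 1 to 3. The groups overlapped, and the log2 difference was -0.02 with a 95% interval of -0.32 to 0.27. Spry4 measured 5.95, 4.10 and 5.23 FPKM in Nmd-/- replicates 1 to 3, against 6.49, 4.44 and 4.95 FPKM in Nmd+/+ replicates 1 to 3. It was highest in replicate 1 and lowest in replicate 2 of both genotypes, and the groups overlapped. Its log2 difference was -0.04 with a 95% interval of -0.47 to 0.38. Spry2 (ENSMUSG00000022114) lies on chromosome 14 from 105891949 to 105896819, and Spry4 (ENSMUSG00000024427) on chromosome 18 from 38586268 to 38601268, both on the minus strand.

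Etv4 and Etv5 encode related transcription factors of the ETS family that are induced by Fgf signals, and Etv4 also marks motoneuron pools that receive signals from the limb. Etv4 was the most variable member, its highest library being 4.99 times its lowest. It measured 14.5, 3.56 and 10.4 FPKM in Nmd-/- replicates 1 to 3, against 11.7, 2.91 and 6.87 FPKM in Nmd+/+ replicates 1 to 3. Each Nmd-/- library was above its Nmd+/+ partner, by ratios of 1.22 to 1.52, and replicate 2 was the lowest library of each genotype. The log2 difference was 0.35 with a 95% interval of -0.92 to 1.63. Leaving out a single library, which breaks a pair, moved it between -0.10 without Nmd+/+ replicate 2 and 0.87 without Nmd-/- replicate 2, and it was -0.02 without Nmd-/- replicate 1. Without replicate 2 of both genotypes it was 0.42. With the replicate number as a block in limma the interval was 0.10 to 0.60, and the adjusted p was 0.94. In replicate 2 the value of Etv4 rested on few fragments, 58.5 in the Nmd+/+ library at the lowest.

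Etv5 was the most abundant of the feedback targets. It measured 29.3, 19.0 and 20.9 FPKM in Nmd-/- replicates 1 to 3, against 26.3, 17.7 and 15.6 FPKM in Nmd+/+ replicates 1 to 3. As for Etv4, replicate 1 was the highest library of each genotype, and the groups overlapped. The log2 difference was 0.22 with a 95% interval of -0.33 to 0.77, and only in pair 3, where 24.6% of the genes tested did so, did the Nmd-/- interval lie above the Nmd+/+ interval. Etv4 (ENSMUSG00000017724) lies on chromosome 11 from 101769742 to 101785371 and Etv5 (ENSMUSG00000013089) on chromosome 16 from 22381309 to 22439719, both on the minus strand.

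Dusp6 encodes a cytoplasmic phosphatase that removes the activating phosphates from Erk. It measured 13.6, 21.8 and 14.5 FPKM in Nmd-/- replicates 1 to 3, against 13.9, 24.2 and 10.4 FPKM in Nmd+/+ replicates 1 to 3. Replicate 2 was the highest library of each genotype, the opposite of Etv4 and Spry4. The pairs went in different directions, with the Nmd-/- interval below the Nmd+/+ interval in pair 2 (18.9% of the genes tested), above it in pair 3 (24.6%) and overlapping it in pair 1. The log2 difference was 0.09 with a 95% interval of -0.63 to 0.81. Dusp6 (ENSMUSG00000019960) lies on chromosome 10 from 99263231 to 99267488 on the plus strand.

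By mean level the feedback targets ranked Etv5 (23.1 FPKM), Dusp6 (16.6 FPKM), Etv4 (9.50 FPKM), Spry2 (5.16 FPKM) and Spry4 (5.10 FPKM) in Nmd-/- cultures. In Nmd+/+ cultures their means were 19.9, 16.2, 7.14, 5.27 and 5.29 FPKM in the same sequence of genes. Spry2 and Spry4 did not differ beyond their spread in either genotype. The ranges of Etv5 and Dusp6, and those of Dusp6 and Etv4, overlapped in both genotypes as well.

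Of the 10 members, 9 passed the filter on low values and 0 passed the adjusted threshold of 0.05 in limma, as did 0% of the 14611 genes tested. Of those 9 members, 7 were higher and 2 lower in Nmd-/- cultures, with a median log2 difference of 0.22, against 8189 of 14611 genes (56.0%) higher and a median of 0.02 over all genes tested. At an unadjusted p under 0.05 the same fit held 65 genes, and 0 of the 8 tested members other than Fgfr1. Fgfr1 was also the single member whose groups did not overlap, a pattern that 1.76% of the genes tested showed in the higher direction and 2.67% in either direction. Higher in all 3 pairs were 5 members, Fgfr1, Fgfr3, Fgfrl1, Etv4 and Etv5, where 14.9% of the genes tested were. Of these Fgfr1 had been picked for its difference. In all 3 pairs 0 members were lower, where 10.6% of the genes tested were. Nmd+/+ replicate 3 was the lowest library for Fgfr1, Fgfr2, Fgfr3, Fgfrl1, Etv5 and Dusp6. Without it 48.4% of the genes tested were higher. The log2 difference was then 0.08 for Fgfr3, 0.07 for Etv5, 0.22 for Fgfrl1, 0.41 for Etv4 and 0.93 for Fgfr1. For the 5 feedback targets the median log2 difference was 0.09, with 3 higher and 2 lower, and it changed sign, to -0.02, without Nmd-/- replicate 1 and, to -0.004, without Nmd+/+ replicate 3.

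**Figure D2:**
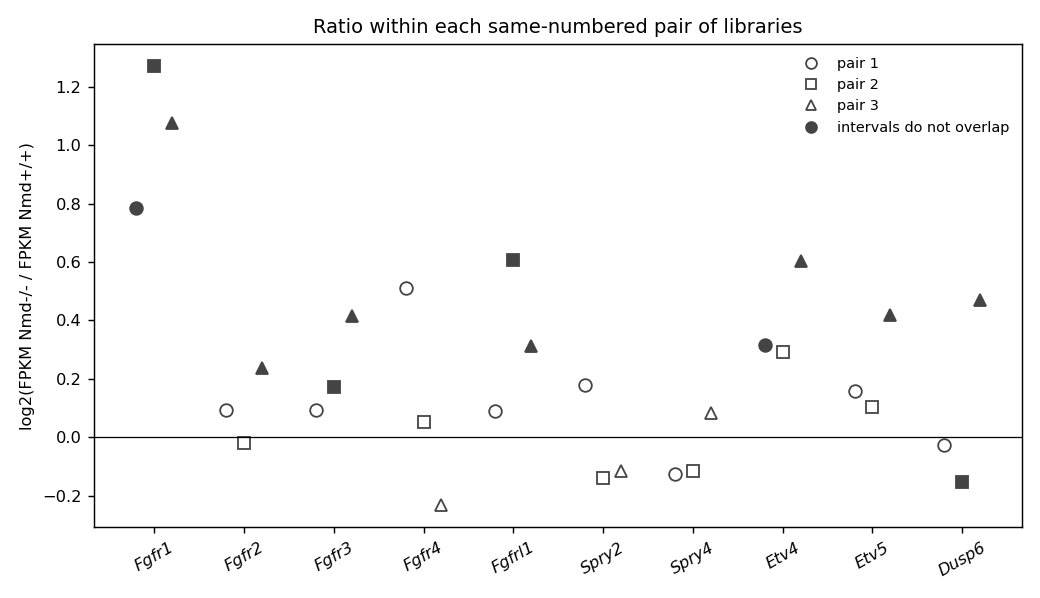
Log2 ratio of FPKM, Nmd-/- over Nmd+/+, within each same-numbered pair of libraries for the 10 genes, with circles, squares and triangles for pairs 1, 2 and 3 and filled markers where the 95% intervals of the paired libraries do not overlap. All 3 points of Fgfr1 are filled and correspond to ratios of 1.72 to 2.41, above the highest ratio of any other member in the same pair.

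Several members differed mainly by replicate number. On the log2(FPKM + 1) scale, genotype took 91.1% of the sum of squares of Fgfr1 and the replicate number 5.60%. For Spry4 the replicate number took 94.3% and genotype 1.35%, for Etv4 the shares were 93.6% and 5.56%, and for Dusp6 they were 88.7% and 1.25%. In the same order the shares were 82.6% and 12.8% for Etv5, 78.1% and 15.6% for Fgfrl1, and 61.1% and 28.6% for Fgfr3. For Fgfr2 the shares were 41.0% with the replicate number, 28.8% with genotype and 30.1% with neither, and for Spry2 62.1% was with neither. The replicate number has 2 degrees of freedom and genotype 1, so with no effect of either the replicate number takes about 2 times the share of genotype. No order is therefore read for Fgfr2, Fgfr3 or Spry2. The shares are a description of these 6 libraries.

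The feedback targets did not move as a block across the replicates. Etv4, Etv5 and Spry4 were highest in replicate 1 of both genotypes, while Dusp6, like Fgfrl1, was highest in replicate 2 of both. Replicate 2 also stood apart in its cell type markers. Fibroblast and meningeal markers, of which 11 of 12 reached a mean of 1 FPKM, summed to 394 FPKM in Nmd-/- and 342 FPKM in Nmd+/+ replicate 2, against 92.6 and 103.6 FPKM in the other Nmd-/- and 65.3 and 94.0 FPKM in the other Nmd+/+ libraries. Neuron markers, all 12 of 12 at a mean of 1 FPKM or more, were lowest in replicate 2, at 1045 FPKM in Nmd-/- and 1018 FPKM in Nmd+/+ libraries, where the highest sums were 1983 FPKM in Nmd-/- and 2126 FPKM in Nmd+/+ libraries. The part of these cells in the levels of Dusp6, Fgfrl1, Etv4 and Spry4 was not tested.

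**Figure D3:**
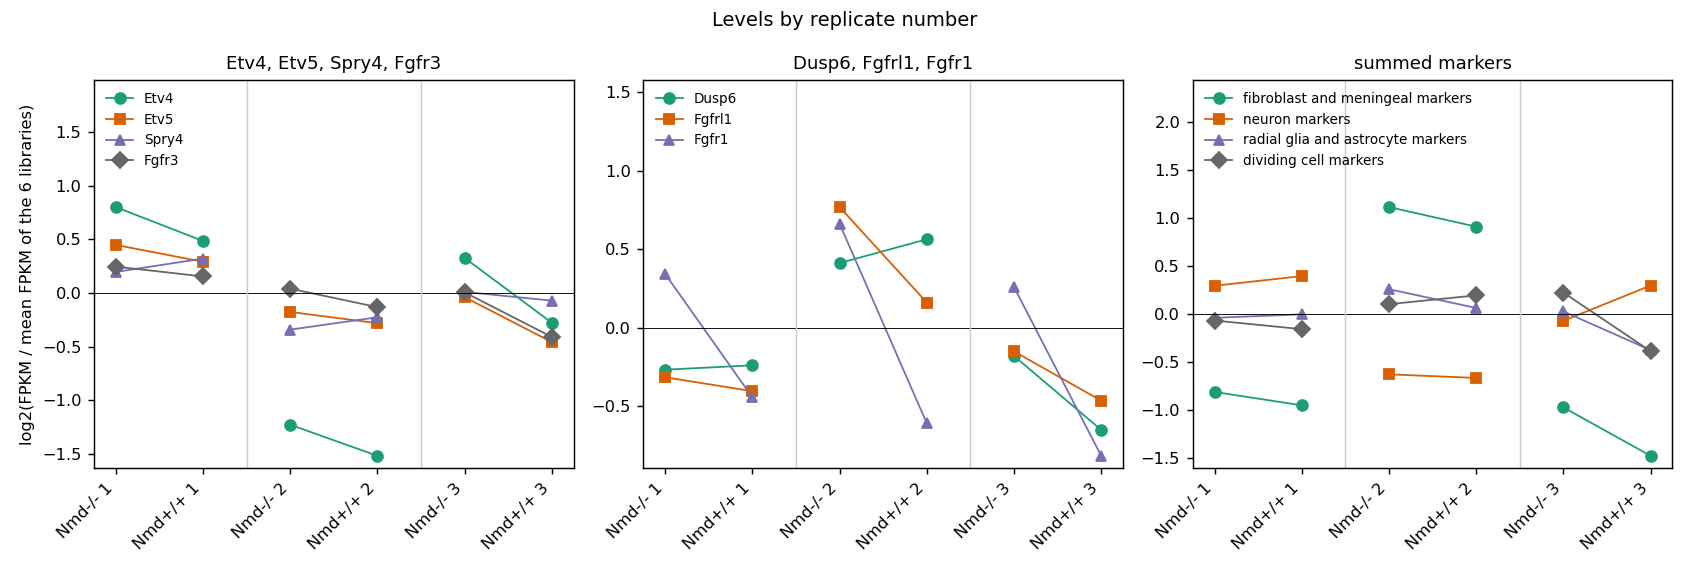
Log2 of FPKM relative to the mean of the 6 libraries, by library, with each Nmd-/- library left of its same-numbered Nmd+/+ library and a line joining the pair, for members in the left and middle panels and for summed cell type markers in the right panel. Etv4 (3.56 and 2.91 FPKM) lies lowest in replicate 2, where Dusp6 (21.8 and 24.2 FPKM) and the fibroblast markers lie highest, and Fgfr1 lies higher in the Nmd-/- library of each pair, by ratios of 1.72 to 2.41.

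Between the genotypes, the summed markers overlapped for all 6 lists, but several lists leaned one way, with 0 genes past the adjusted threshold. All 12 dividing cell markers were higher in Nmd-/- cultures (median log2 difference 0.22), whereas all 12 neuron markers (-0.18), all 7 tested oligodendrocyte lineage markers (-0.35) and all 5 tested motoneuron markers (-0.20) were lower. Of the 11 tested fibroblast and meningeal markers 9 were higher and 2 lower (0.15). Over all genes tested 56.0% were higher. The oligodendrocyte lineage and motoneuron sums were lower in the Nmd-/- library of each of the 3 pairs. Dividing cell markers, 12 of 12 at a mean of 1 FPKM or more, summed to between 566 and 693 FPKM in Nmd-/- and between 453 and 679 FPKM in Nmd+/+ libraries. Oligodendrocyte lineage markers, 7 of 9 at that level, summed to between 33.1 and 58.5 FPKM in Nmd-/- and between 54.1 and 71.7 FPKM in Nmd+/+ libraries. Motoneuron markers summed to between 56.2 and 63.8 FPKM in Nmd-/- and between 58.4 and 74.4 FPKM in Nmd+/+ libraries. The part of cell composition in the Fgfr1 level was not tested.

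Promoter windows are shown here for some of the members that were highest in the same replicate number of both genotypes. The windows printed are those of Dusp6 with Fgfrl1 and of Etv5 with Fgfr3. Each runs from 250 bases before to 50 bases after the RefSeq start, on GRCm38.p6, 5′ to 3′ on the strand of the gene. Capitals mark CGGAAG, a core of the sites bound by ETS factors such as Etv4 and Etv5, or its reverse complement CTTCCG.
Dusp6, chr10:99262981-99263280, plus strand: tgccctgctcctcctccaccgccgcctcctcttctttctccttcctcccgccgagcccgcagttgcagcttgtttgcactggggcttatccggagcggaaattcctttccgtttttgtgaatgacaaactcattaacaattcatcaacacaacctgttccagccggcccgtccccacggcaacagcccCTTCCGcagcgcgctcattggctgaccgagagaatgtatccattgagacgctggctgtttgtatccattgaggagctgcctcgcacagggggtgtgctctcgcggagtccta
Fgfrl1, chr5:108693979-108694278, plus strand: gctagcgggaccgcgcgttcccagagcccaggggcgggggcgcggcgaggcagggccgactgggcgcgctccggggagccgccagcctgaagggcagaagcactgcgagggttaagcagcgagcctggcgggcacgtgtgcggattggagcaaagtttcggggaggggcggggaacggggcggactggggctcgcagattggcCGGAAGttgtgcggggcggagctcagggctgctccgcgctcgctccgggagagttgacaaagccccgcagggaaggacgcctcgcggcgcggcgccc
Etv5, chr16:22439521-22439820, minus strand: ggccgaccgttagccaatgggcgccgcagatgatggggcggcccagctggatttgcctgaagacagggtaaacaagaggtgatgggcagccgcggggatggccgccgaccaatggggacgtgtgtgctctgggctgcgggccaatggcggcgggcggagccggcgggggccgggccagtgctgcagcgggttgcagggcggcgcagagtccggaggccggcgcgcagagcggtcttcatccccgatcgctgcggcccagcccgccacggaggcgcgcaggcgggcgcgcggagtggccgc
Fgfr3, chr5:33721474-33721773, plus strand: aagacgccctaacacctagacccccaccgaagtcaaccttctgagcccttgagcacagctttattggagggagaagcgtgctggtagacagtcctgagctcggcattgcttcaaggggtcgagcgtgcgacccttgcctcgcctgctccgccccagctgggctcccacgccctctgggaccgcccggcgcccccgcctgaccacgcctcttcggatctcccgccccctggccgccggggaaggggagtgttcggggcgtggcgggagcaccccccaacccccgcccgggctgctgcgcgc
The motif occurred 1 time in the Dusp6 window, as CTTCCG, and 1 time in the Fgfrl1 window, and these letters are in neither the Etv5 nor the Fgfr3 window printed. Of 32851 promoter windows of the same length, 16.9% held it on either strand. The windows printed are rich in G and C, at 57.3% for Dusp6, 73.7% for Fgfrl1, 74.0% for Etv5 and 69.7% for Fgfr3. The window of Fgfr2, which was also highest in replicate 1 of both genotypes, is not printed. It was 43.7% G and C and held neither CGGAAG nor CTTCCG. The other windows of Etv5 (60.0%) and Fgfr3 (73.0%), also not printed, did not hold these letters either. The AP-1 motif TGACTCA, or its reverse complement TGAGTCA, was in 0 of the 9 windows of the 7 members that had a RefSeq entry, and in 5.2% of all windows. Such matches describe letters and do not show binding.

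The genes around Fgfr1 did not differ by as much as Fgfr1, which was picked for its difference. A ratio of means of at least 2 in this direction was found in only 0.0479% of the genes tested. Within 500 kb of the Fgfr1 start the files hold 25 other genes, of which 17 were tested and 8 were higher in Nmd-/- cultures. Of the 17, 0 had groups that did not overlap, a pattern of 2.67% of the genes tested. Their ratios ran from 0.744 for Kcnu1 to 1.25 for Plekha2, and their median log2 difference was -0.01. The nearest tested gene upstream, the pseudogene Gm10689, had a ratio of 1.14, and all 4 tested upstream genes (Tm2d2, Plekha2, Tacc1 and Gm10689) were higher in all 3 pairs, as were 14.9% of the genes tested. The next genes downstream, Letm2 and Whsc1l1, had ratios of 0.928 and 0.927, with 2.03 ± 0.368 and 18.6 ± 1.44 FPKM in Nmd-/- against 2.18 ± 0.242 and 20.1 ± 1.55 FPKM in Nmd+/+ cultures (SD, n = 3 each).

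**Figure D4:**
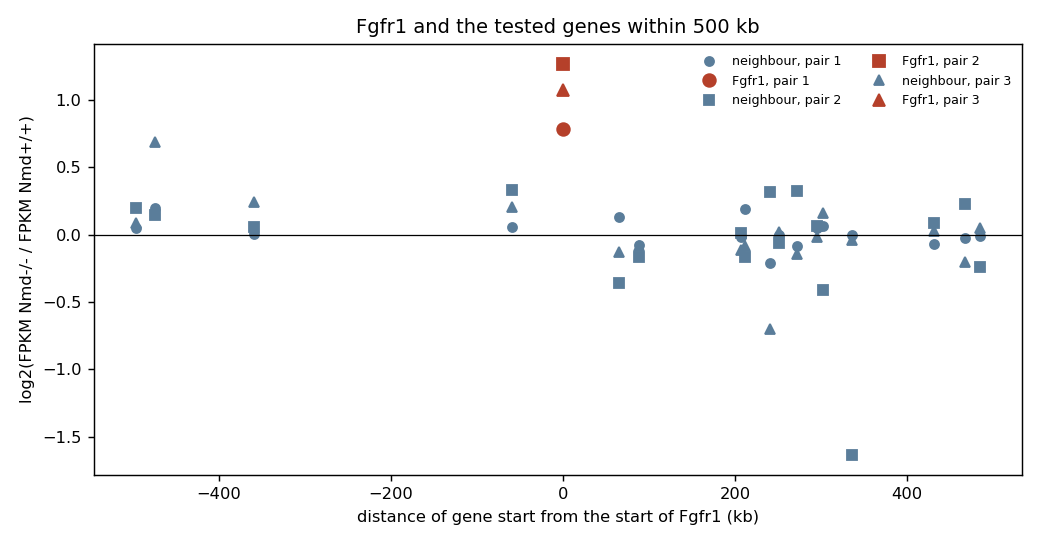
Log2 ratio of FPKM, Nmd-/- over Nmd+/+, in each same-numbered pair for Fgfr1 (red) and the 17 tested genes within 500 kb (blue), against the distance of the gene's lowest coordinate from that of Fgfr1 in kb. The ratios of Fgfr1 are 1.72 to 2.41, and none of the neighbours lies at or above 1.72 in any pair.

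Most of the Fgf genes that were expressed had slightly lower means in Nmd-/- cultures. Of the 22 Fgf genes 8 reached testing, 1 was higher and 7 were lower in Nmd-/- cultures, 0 passed the adjusted threshold or an unadjusted p under 0.05 in limma, and the median log2 difference was -0.13, against 0.02 over all genes tested. Among them Fgf11, Fgf12, Fgf13 and Fgf14 encode intracellular proteins that bind sodium channels and are not receptor ligands. Fgf13, the most abundant, averaged 63.3 ± 19.0 FPKM in Nmd-/- and 66.4 ± 20.5 FPKM in Nmd+/+ cultures (SD, n = 3 each). Fgf15, a secreted Fgf of neural progenitors, measured 21.3, 10.5 and 25.8 FPKM in Nmd-/- replicates 1 to 3, against 25.8, 18.2 and 15.5 FPKM in Nmd+/+ replicates 1 to 3. Fgf9, a secreted ligand made by motoneurons and other neurons, measured 3.18, 2.36 and 3.55 FPKM in Nmd-/- replicates 1 to 3, against 3.82, 3.40 and 3.63 FPKM in Nmd+/+ replicates 1 to 3. All 3 genes had overlapping groups, with 95% intervals of the log2 difference that included 0.

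Proteins that hold Fgfs at the cell surface or bind their receptors went both ways. Of 20 listed co-receptors and binding partners 16 were tested, 11 were higher and 5 lower, 0 passed the threshold, and the median log2 difference was 0.11. The heparan sulfate carrier Gpc4 was the most abundant, at 317.4 ± 18.7 FPKM in Nmd-/- and 249.0 ± 71.1 FPKM in Nmd+/+ cultures (SD, n = 3 each), with overlapping groups. N-cadherin (Cdh2), which binds Fgfr1, averaged 238.4 ± 23.1 FPKM in Nmd-/- and 209.7 ± 19.1 FPKM in Nmd+/+ cultures, also with overlap. Fgfbp3, which encodes a secreted carrier of Fgfs, was the single tested gene of the list whose groups did not overlap. It measured 54.3, 66.1 and 63.8 FPKM in Nmd-/- replicates 1 to 3, against 71.5, 93.6 and 70.6 FPKM in Nmd+/+ replicates 1 to 3, and 0.91% of the genes tested lay without overlap in that direction. The log2 difference of Fgfbp3 was -0.34 with a 95% interval of -0.72 to 0.03.

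Downstream of the receptors, all 25 listed adaptors and members of the cascade from Ras to Erk were tested, 19 were higher and 6 lower, 0 passed the threshold, and the median log2 difference was 0.07. The kinase gene Mapk3 averaged 100.9 ± 8.70 FPKM in Nmd-/- and 104.2 ± 6.21 FPKM in Nmd+/+ cultures (SD, n = 3 each). The adaptor gene Shc1 had the smallest unadjusted p of this list in a fit in which none passed, and a log2 difference of 0.30 with a 95% interval of -0.47 to 1.07. Frs2, the adaptor that docks on Fgf receptors, measured 18.4, 18.0 and 18.9 FPKM in Nmd-/- replicates 1 to 3, against 17.7, 17.1 and 17.2 FPKM in Nmd+/+ replicates 1 to 3. These groups did not overlap, a pattern that 1.76% of the genes tested showed in this direction. The ratio of means was only 1.06, and Frs2 was picked for mention after its values were seen.

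Other inhibitors of the pathway were evenly divided, with 14 of 16 listed genes tested, 7 higher, 7 lower, 0 past the threshold and a median log2 difference of -0.00. Spred2 and the Ras inhibitor Nf1, the most abundant, averaged 34.6 ± 1.56 and 29.0 ± 0.284 FPKM in Nmd-/- and 32.9 ± 2.21 and 29.1 ± 0.231 FPKM in Nmd+/+ cultures (SD, n = 3 each). Errfi1, an inhibitor of Egf receptors, averaged 20.8 ± 1.82 FPKM in Nmd-/- and 23.7 ± 3.35 FPKM in Nmd+/+ cultures. Of 18 other genes that respond to Erk, 15 were tested, 10 were higher and 5 lower, 0 passed, and the median was 0.08. Cyclin D1 (Ccnd1) measured 20.3, 27.0 and 19.4 FPKM in Nmd-/- replicates 1 to 3, against 16.1, 37.5 and 9.19 FPKM in Nmd+/+ replicates 1 to 3, with its highest value in replicate 2 of each genotype like Dusp6. Myc averaged 20.0 ± 2.56 FPKM in Nmd-/- and 21.1 ± 3.74 FPKM in Nmd+/+ cultures, and Phlda1, a gene induced by growth factors, averaged 14.8 ± 1.97 FPKM in Nmd-/- and 18.7 ± 5.46 FPKM in Nmd+/+ cultures.

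Among 26 other receptor tyrosine kinase genes 19 were tested, 14 were higher and 5 lower in Nmd-/- cultures, 0 passed, and the median log2 difference was 0.13. Their log2 differences ran from -0.45 for Pdgfra, a receptor of oligodendrocyte precursors, to 0.36, which leaves the 1.02 of Fgfr1 above all 19. The neurotrophin receptor gene Ntrk2 was the most abundant of them, at 99.4 ± 12.3 FPKM in Nmd-/- and 98.0 ± 8.57 FPKM in Nmd+/+ cultures (SD, n = 3 each). The collagen receptor gene Ddr1 averaged 47.8 ± 1.59 FPKM in Nmd-/- and 41.9 ± 6.05 FPKM in Nmd+/+ cultures. Pdgfra measured 0.588, 2.16 and 0.618 FPKM in Nmd-/- replicates 1 to 3, against 1.21, 2.48 and 1.69 FPKM in Nmd+/+ replicates 1 to 3, lower in each pair but with overlapping groups.

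**Figure D5:**
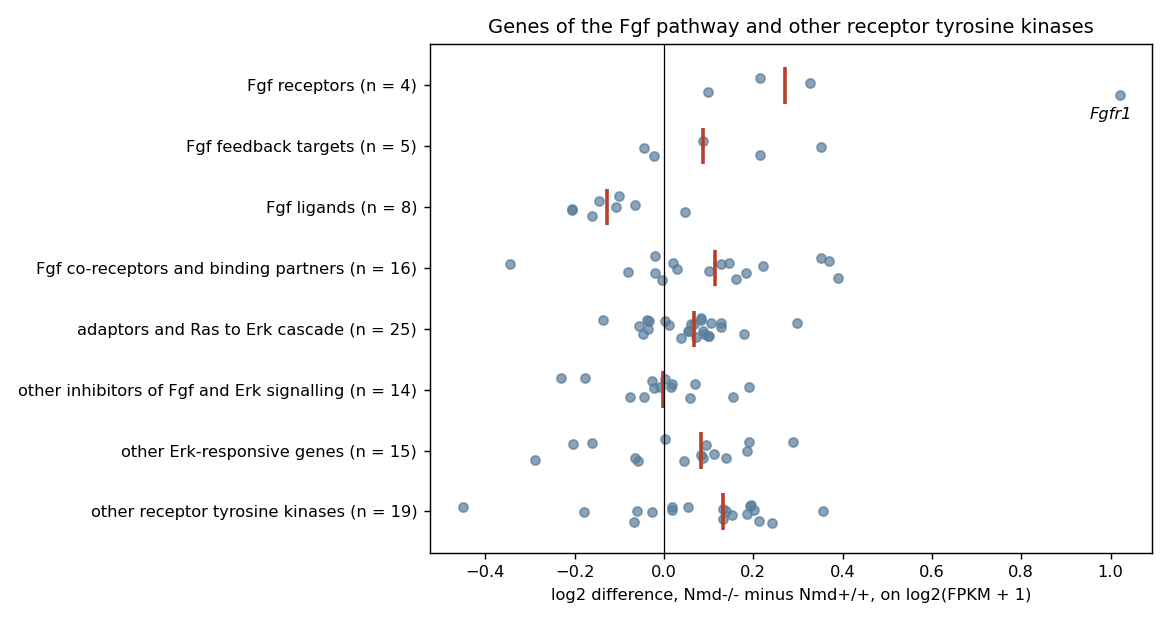
Log2 difference, Nmd-/- minus Nmd+/+, of each tested gene (points, spread vertically only for legibility) in 8 lists of the Fgf pathway and other receptor tyrosine kinases, with the median of each list as a red bar. Fgfr1 lies at 1.02, to the right of every other gene shown, and the list medians lie between -0.13 for the ligands and 0.27 for the receptors.

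The genes whose profile over the 6 libraries came closest to that of Fgfr1, by Pearson r of log2(FPKM + 1) over all genes tested, were Erich2 (0.99), Grip1 (0.97), Slc12a8 (0.97), Slc27a3 (0.97) and 9130221H12Rik (0.97). These libraries form separate groups by genotype for Fgfr1, so a high r here mainly restates a genotype difference, and no p is given. All 5 differed by far less than Fgfr1: Erich2, the closest, averaged 3.42 ± 0.191 FPKM in Nmd-/- and 2.64 ± 0.154 FPKM in Nmd+/+ cultures (SD, n = 3 each). Closest to the mean standardised level of the 5 feedback targets were Gm26527 (0.99), Zmym1 (0.99), Zfp623 (0.99), Eif4a3 (0.98) and Pepd (0.98), with log2 differences between 0.02 and 0.03. The targets did not share a profile, with an r of 0.90 between Etv4 and Spry4 but -0.75 between Etv4 and Dusp6. A high r with their mean is therefore no likeness to each target. These are the highest r of all genes tested over only 6 libraries, and no p is given.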

How the data were processed

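Total RNA of the cultures was extracted with a column kit and made into libraries with a Lexogen mRNA kit, per the labels' protocols. Per the file headers the authors deposited 1 Cufflinks table for each library, which lists FPKM by gene with a 95% interval and a status. Tools named in the submitters' processing notes are cutadapt 1.8, Trim Galore 0.4.0, FastQC 0.10.1, SAMtools 1.3 and Cufflinks 2.2.1, with the build GRCm38. For the aligner's version, the annotation release and the use of strand, nothing is given in the sources used here. FPKM are scaled within each library, and with no counts deposited the depth was read from the interval widths, as the fragments that would give such widths by counting error.

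The comparison, Nmd-/- minus Nmd+/+, was fitted on log2(FPKM + 1) with limma 3.58.1 in R 4.3.3, using an intensity trend and genotype as the only term and no rescaling between libraries. The filter kept genes averaging 1 FPKM or more with an accepted status in each library, 14611 of 39174. A failed status removed 28 genes. Tests are two-sided, with Benjamini-Hochberg adjustment over all genes tested and a threshold of 0.05. The log2(FPKM + 1) scale understates differences of low genes, and ratios of means carry no pseudocount. Intervals of log2 differences are 95% intervals from the same fit.

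Both genotypes carry the replicate numbers 1 to 3. Deviations from the group means of same-numbered libraries correlated across genes at 0.82, 0.70 and 0.39 for numbers 1, 2 and 3. Between libraries of different numbers the values ran from -0.81 to 0.28, so the pairing by number is least clear for number 3. No label states this pairing, which was read from the values. Alternatives were a replicate block, a pseudocount of 0.1, no filter, a filter at a mean of 5 FPKM, scaling by median of ratios (with and without the block), quantile normalization, no intensity trend, leaving out each library, and leaving out replicate 2 of both genotypes (with and without the block).

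The members, the lists, the tests and the alternatives were chosen with earlier results of these data known. Named genes were all members, those within 500 kb of Fgfr1 summarised by their extremes and nearest neighbours, the 2 most abundant genes and the gene with the smallest unadjusted p of each list, and the 5 closest profiles; 1 gene and 1 sequence that these rules would name are not reported here. Sequences are credited to RefSeq (promoters) and GENCODE M21 (coding regions), and 7 of the 10 members had a RefSeq promoter entry.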

Additional observations from a re-analysis of the deposited data

How the results depend on the processing

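With the replicate number as a block, 0 genes and 0 members passed the adjusted threshold in limma, as without it, although 711 genes in place of 65 had an unadjusted p under 0.05. The block alone changed no call. Of the 16 alternatives, 1 gave any call, the fit with the replicate block and without replicate 2 of both genotypes. That fit rested on replicates 1 and 3 alone, and 34 of the 14611 genes tested passed. Of the 9 tested members 1 passed, Fgfr1, which was chosen for this difference. In the fits that left out a single library, 0 genes passed. The log2 difference of Fgfr1 stayed between 0.90 and 1.11 in all alternatives, and it exceeded that of each other tested member in all of them, by as little as 0.03 for Etv4 without Nmd-/- replicate 2. The median of the 5 feedback targets lay between -0.02 and 0.20 and changed sign in 2 alternatives. Signs changed in 3 alternatives for Spry2 and in 2 each for Spry4, Etv4 and Dusp6, and in 0 for Fgfr1, Fgfr2, Fgfr3, Fgfrl1 and Etv5. The cause was not tested. With median-of-ratios scaling 48.7% of genes were higher in Nmd-/- cultures, against 56.0% without it. Among the members other than Fgfr1, the 95% interval of the blocked fit lay above 0 for Etv4 and Fgfrl1, neither of which passed after adjustment. For Fgfr4 the depth allowed no comparison.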
